A study of Homo sapiens with 6 samples.

Results

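NF-κB is a family of transcription factors, with RELA as the subunit best known for switching on inflammatory genes, that IκB proteins hold inactive in the cytoplasm until a signal has them degraded. Its target genes include neutrophil-attracting CXC chemokines and inflammatory cytokines, and also genes whose products switch the pathway off again. In liver cancer these secreted factors are known for drawing immune cells to the tumour and for acting on the tumour cells themselves. The genes described here were chosen by name, as a set of such targets: the chemokines CXCL1, CXCL2, CXCL3, CXCL5, CXCL8 and CCL20, the cytokines IL6 and LIF, and the feedback inhibitors NFKBIA and TNFAIP3. All 10 were found by symbol among the 38637 genes of the deposited table, and all 10 were above 0 in each of the 6 libraries.

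The libraries came from HCCLM3-SR, a sorafenib-resistant derivative of the human hepatocellular carcinoma (HCC) line HCCLM3, and sequenced polyadenylated RNA. The knockdown group was 3 libraries from cells given siRNA against cDCBLD2, a circular RNA from the DCBLD2 gene, and the control group was 3 libraries from cells given control siRNA. Both groups were transfected for 3 days and treated with sorafenib, a multikinase inhibitor, at 5 µM, so every value below is from drug-treated cells of 1 line, with no untreated or parental cells beside them. The study asked what cDCBLD2 does in sorafenib-resistant cells, and the comparison made here is how the inflammatory genes differed after its knockdown. The labels do not say whether the libraries of a group came from separate cultures, so the p-values measure the spread between these libraries, which may be technical.

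Values are TPM, a measure per gene length that adds up to 1000000 in every library, and levels can therefore be compared between genes. Whole reads recovered from the TPM ratios came to between 17492673 and 23064302 per library, as lower bounds. The linear DCBLD2 mRNA ranged from 25.9 to 58.1 TPM after knockdown and from 48.5 to 71.5 TPM in the controls, which does not measure the circle. Of the 9 markers of a liver cancer line, 5 had a mean of at least 1 TPM, and their summed level of 4810 to 6980 TPM lay almost wholly in the keratins KRT8 and KRT18. ALB (albumin) and AFP (alpha-fetoprotein), secreted by adult and fetal liver cells, were between 0.189 and 2.08 TPM in all libraries. Of 7 leukocyte markers, 2 had a mean of at least 1 TPM, mostly the lysosomal CD68, and the T-cell gene CD3E was at 0 in every library. The 4 endothelial markers summed to 3.75 to 5.79 TPM over all libraries.

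The genes were chosen as known NF-κB targets, so the κB sites in their promoters are not independent of that choice. The sites are shown for their letters, and their part in the differences below was not tested. RefSeq promoter windows on GRCh38.p14, from 250 bases before the start to 50 after it, were given for 9 of the 10 genes, all except LIF. Each line shows a match in capitals with 8 bases on either side, 5′ to 3′ on the strand of the gene.
CXCL1: ggaactccGGGAATTTCCctggcccg
CXCL2: ggagctccGGGAATTTCCctggcccg
CXCL3: ggagctccGGGAATTTCCctggcccg
CXCL5: tgagttcaGGGAATTTCCccagcatc
CXCL8: caaatcgtGGAATTTCCtctgacat
IL6: tcaaatgtGGGATTTTCCcatgagtc
CCL20: atcaatggGGAAAACCCCatgtggca
NFKBIA: actggcttGGAAATTCCCcgagcctg
TNFAIP3: agtcccgtGGAAATCCCCgggcctac

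The shown windows of CXCL2 and CXCL3 were the same 26 bases. They lie at chr4:74099256-74099281 and chr4:74038751-74038776, both on the minus strand, and the capitals begin 78 and 79 bases before the start. The windows of CXCL1 (chr4:73869306-73869331, plus strand) and CXCL5 (chr4:73998751-73998776, minus strand) held the same 10 capital bases at 79 and 91 bases before the start. The CXCL8 match, at chr4:73740470-73740494 on the plus strand, was to the 9-base RelA-type motif alone and began 91 bases before the start. The IL6 window is at chr7:22727119-22727144 on the plus strand, and its match began 73 bases before the start. The CCL20, NFKBIA and TNFAIP3 matches read on the opposite strand of the gene, at chr2:227813755-227813780, chr14:35404813-35404838 and chr6:137867196-137867221. TNFAIP3, an enzyme that edits ubiquitin chains to switch the pathway off, had another such match 67 bases before its start. All starts here are those of RefSeq. The windows of IL6, CCL20, TNFAIP3, CXCL5, CXCL2 and CXCL3 therefore lie inside the GENCODE 29 gene spans given below.

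The motifs searched on both strands were the 10-base NF-κB consensus and the 9-base RelA-type motif GGNNNTTCC, which overlap each other at most of these sites. One or the other was found in 9 of 9 promoters, against 25.6% of 35116 promoters of the same length. The 10-base consensus was in 8 of 9, against 11.3%, and GGNNNTTCC in 9 of 9, against 20.1%. A TATA box, searched as TATAAA on the strand of the gene, was in 2 of 9, CXCL8 and CCL20, against 7.33%. Since the genes were chosen as NF-κB targets, the κB shares are no independent evidence. These matches describe the letters of the reference sequence, and binding was not measured.

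Among the 5 neutrophil-attracting chemokines, CXCL2, CXCL3 and CXCL8 were higher in every knockdown library than in any control library, while CXCL1 and CXCL5 were not. All 5 lie on chromosome 4 (GRCh38, GENCODE 29), CXCL8 from 73740506 to 73743716, CXCL1 from 73869393 to 73871242, CXCL5 from 73995642 to 73998779, CXCL3 from 74036589 to 74038807 and CXCL2 from 74097035 to 74099293. In bulk RNA, fewer cells that express a gene and less of its RNA per cell cannot be told apart.

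CXCL3, a ligand of the receptor CXCR2, measured 4.29, 2.67 and 3.72 TPM in replicates 1, 2 and 3 of the knockdown and 1.52, 0.579 and 1.05 TPM in those of the control. The lowest knockdown library thus lay above the highest control library. The means were 3.56 ± 0.825 and 1.05 ± 0.469 TPM (SD, n = 3 each), a ratio of 3.4. The values rested on 94 recovered reads after knockdown and 25 in the controls, a rate ratio of 3.51 with a 95% exact interval of 2.24 to 5.7. These intervals, here and below, cover counting error in the pooled reads only and not the spread between libraries.

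CXCL2, another CXCR2 ligand, was at 6.72, 2.09 and 3.28 TPM after knockdown and at 1.6, 1.45 and 1.34 TPM in the controls. The groups did not overlap, and knockdown replicate 1 stood well above the other two. The means were 4.03 ± 2.41 and 1.46 ± 0.126 TPM (SD, n = 3 each), a ratio of 2.75, on 106 and 37 recovered reads. The rate ratio was 2.68, with a 95% exact interval of 1.83 to 4.01. The summed level of 5 stromal markers, 2 of which had a mean of at least 1 TPM, was also highest in knockdown replicate 1, ranging from 7.96 to 18.2 TPM after knockdown and from 5.61 to 6.45 TPM in the controls. Among them the collagen gene COL1A1 was at 11.2 TPM and COL1A2 at 2.67 TPM in that library, COL1A2 was at 0 in the other 5, and the part of these genes in the CXCL2 and CXCL3 values was not tested.

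CXCL8, the chemokine also called interleukin-8, was at 0.771, 0.825 and 0.888 TPM after knockdown and at 0.36, 0.484 and 0.485 TPM in the controls. The groups did not overlap, with means of 0.828 ± 0.0588 and 0.443 ± 0.0719 TPM (SD, n = 3 each) and a ratio of 1.87. The libraries held only 5 to 16 recovered reads of it, 43 after knockdown and 21 in the controls. The rate ratio was 1.91, with a 95% exact interval of 1.11 to 3.4.

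CXCL5, the most abundant of the chemokines in the controls, was at 5.27, 4.01 and 3.38 TPM after knockdown and at 4.75, 6.24 and 5.59 TPM in the controls. The groups overlapped, since knockdown replicate 1 lay above control replicate 1. The means were 4.22 ± 0.963 and 5.52 ± 0.747 TPM (SD, n = 3 each), a ratio of 0.764.

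CXCL1, a close relative of CXCL2 and CXCL3, was at 0.843, 0.975 and 0.286 TPM after knockdown and at 0.372, 0.936 and 0.626 TPM in the controls. Its lowest and its second lowest values were in opposite groups, and the groups overlapped. The 21 and 18 recovered reads gave a rate ratio of 1.09 with a 95% exact interval of 0.553 to 2.17. With the spread between libraries counted, the limma-voom fit described below gave 0.1 in log2, with 2 standard errors spanning -1.02 to 1.22. In that fit CXCL3 spanned 1.09 to 2.65, so the spans of the 2 genes overlapped. In coding sequence CXCL1 was identical to CXCL2 at 93.5% and to CXCL3 at 90.7% of positions, and CXCL2 to CXCL3 at 94.4%. Of the 50-base windows of the transcripts, between 0.6% and 5.7% were found whole in another of these 3 genes, and none were shared with CXCL5 or CXCL8. How reads that fit more than 1 of the 3 were counted is not given in the sources used here, so the split between them is uncertain.

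**Figure D1:**
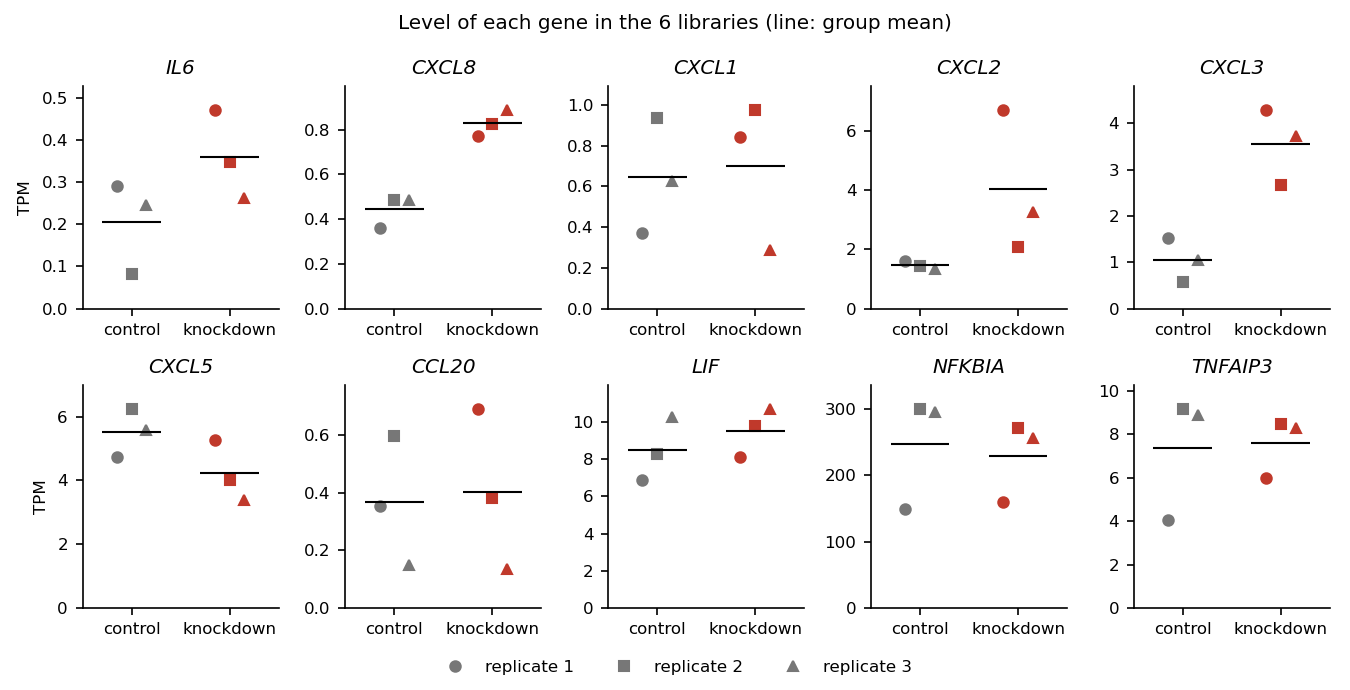
TPM of the 10 genes in each library, with circles, squares and triangles for replicates 1, 2 and 3, grey for control, red for knockdown and a line at each group mean. Each axis starts at 0 and has its own range. CXCL8, CXCL2 and CXCL3 show no overlap between the groups, while replicate 1 is lowest in both groups for CXCL8, LIF, NFKBIA and TNFAIP3.

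Of the 10 genes, 3 had groups that did not overlap with the knockdown higher and 0 had the knockdown lower. Over the 17285 genes above 0 in all libraries, 8.68% did not overlap with the knockdown higher and 28.6% did not overlap in either direction. The 3 of 10 is therefore close to the background in either direction. The two-sided exact permutation p of CXCL2, CXCL3 and CXCL8 was 0.1, the smallest that 3 against 3 libraries can give.

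The mixture of the 5 chemokine mRNAs, a quantity chosen after their values were seen, also differed between the groups. CXCL5 made up 55.3, 64.4 and 61.5% of their summed TPM in control replicates 1, 2 and 3 and 29.4, 37.9 and 29.2% in the knockdown libraries. The shares were 60.4 ± 4.66% and 32.2 ± 4.96% (SD, n = 3 each) and the groups lay far apart. The ratio of CXCL2 plus CXCL3 to CXCL5 was 0.656, 0.326 and 0.428 in the controls and 2.09, 1.19 and 2.07 after knockdown. Each control library thus had more CXCL5 than CXCL2 and CXCL3 together, and each knockdown library had less. The summed level was 8.59, 9.69 and 9.09 TPM in the controls and 17.9, 10.6 and 11.5 TPM after knockdown, and knockdown replicate 1 was the highest. For all these quantities the exact permutation p was 0.1, the smallest possible, and since they were picked from these values it is no independent evidence.

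**Figure D2:**
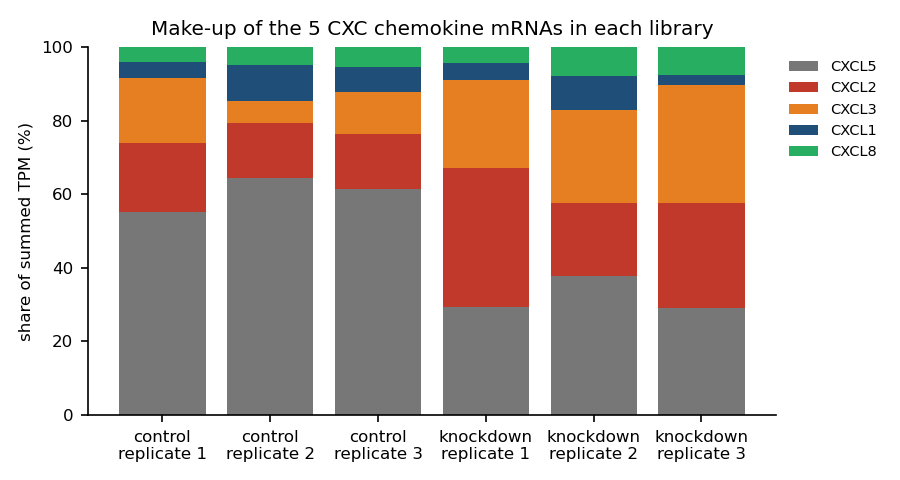
Share of each of 5 CXC chemokine mRNAs in their summed TPM, as stacked bars for the 6 libraries that add to 100%. The CXCL5 share is 55.3% or more in the control libraries and 37.9% or less in the knockdown libraries.

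The other secreted factors overlapped between the groups. IL6, an inflammatory cytokine that signals through IL6ST, lies on chromosome 7 from 22725884 to 22732002. It was at 0.471, 0.347 and 0.261 TPM after knockdown and at 0.291, 0.0814 and 0.245 TPM in the controls. The knockdown library was the higher within each replicate number, but the lowest knockdown value lay below the highest control value. It rested on 27 and 14 recovered reads, a rate ratio of 1.8 with a 95% exact interval of 0.913 to 3.72, and the exact permutation p was 0.2. A difference in IL6 was not detectable at this depth.

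LIF, a cytokine of the same receptor family, lies on chromosome 22 from 30240447 to 30246851. It was at 8.1, 9.78 and 10.7 TPM after knockdown and at 6.87, 8.26 and 10.3 TPM in the controls, the highest mean level of the secreted factors among the 10 genes. The knockdown library was a little higher in each replicate number, by 0.24, 0.24 and 0.06 on the log2 scale of TPM ratios, while the groups overlapped broadly. The means were 9.53 ± 1.32 and 8.48 ± 1.73 TPM (SD, n = 3 each).

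CCL20, which attracts cells that carry the receptor CCR6, lies on chromosome 2 from 227805739 to 227817564. It was at 0.691, 0.382 and 0.137 TPM after knockdown and at 0.355, 0.597 and 0.15 TPM in the controls. With 8 and 7 recovered reads, the rate ratio of 1.07 had a 95% exact interval of 0.339 to 3.46, and a difference was not detectable at this depth.

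The feedback inhibitors varied mainly with the replicate number. NFKBIA, which encodes the inhibitor IκBα and lies on chromosome 14 from 35401511 to 35404749, was by far the most abundant of the 10. It was at 160, 271 and 257 TPM after knockdown and at 149, 300 and 295 TPM in the controls. Replicate 1 was at 0.608 times the mean of replicates 2 and 3 after knockdown and at 0.5 times in the controls. Within a replicate number, the log2 ratios of knockdown to control TPM were 0.11, -0.15 and -0.2, and so lay near 0.

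TNFAIP3, also called A20, lies on chromosome 6 from 137867188 to 137883312 and had the same order of libraries. It was at 5.97, 8.46 and 8.3 TPM after knockdown and at 4.04, 9.16 and 8.87 TPM in the controls. Replicate 1 was the lowest in both groups, at 0.713 and 0.448 times the mean of the other two. The means were 7.58 ± 1.39 and 7.36 ± 2.87 TPM (SD, n = 3 each).

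Replicate 1 was the lowest library of both groups for 4 of the 10 genes, NFKBIA, TNFAIP3, LIF and CXCL8, against 25.1% of the 17285 genes. It was the highest of both groups for 3, IL6, CXCL2 and CXCL3, against 34.8%. Differences with the replicate number thus ran through the whole table and were not particular to these genes. What a replicate number stands for is not stated in the labels.

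**Figure D3:**
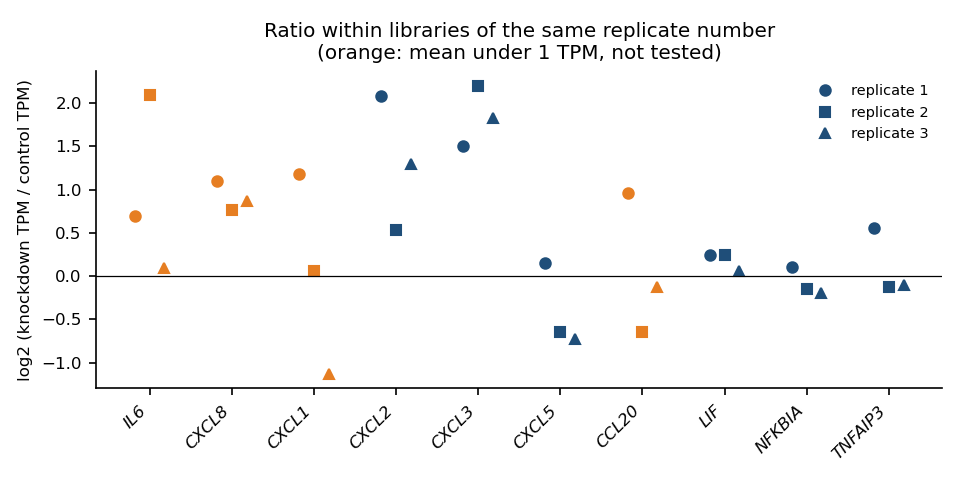
Log2 ratio of knockdown to control TPM between libraries of the same replicate number, for 10 genes, with circles, squares and triangles for replicates 1, 2 and 3, blue for genes tested and orange for genes with a mean under 1 TPM. The 3 ratios are above 0 for IL6, CXCL8, CXCL2, CXCL3 and LIF, highest for CXCL3 at 1.5, 2.2 and 1.83, and lie on both sides of 0 for the other genes.

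All genes averaging 1 TPM or more, 13980 in number, were compared by limma on log2(TPM + 1), a scale that understates the change of low genes. Of the 10 genes, 6 entered it, and IL6, CXCL8, CXCL1 and CCL20 did not. Without a term for the replicate number, 0 of the 6 passed a Benjamini-Hochberg adjusted p of 0.05, where 0.88% of all genes did, and 2 of the 6 had an unadjusted limma p under 0.05. With the replicate number as a block, 2 of the 6, CXCL2 and CXCL3, were called higher, against 9.94% of all genes called higher and 35.0% called in either direction. As a count, 2 of 6 is close to the share called in either direction. The median log2 fold change of the 6 was 0.13, against -0.08 over all genes tested.

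CXCL3 differed by 1.16 on the log2 scale of TPM + 1 (SE 0.226, limma adjusted p = 0.0622) without the block, which was the 64th highest difference of 13980. With the block its SE was 0.118 and the limma adjusted p was 0.00483. Of the 6 fits that each left out 1 library, without the block, CXCL3 passed in the one without knockdown replicate 1, at 1.05 (limma adjusted p = 0.0312), where 649 of all genes were called higher and 2771 lower. In the other 5 its limma adjusted p was 0.15 to 0.245, and 0 genes were called. With each library's trend with transcript GC content removed, the difference was 1.41 and the limma adjusted p was 0.0463, or 0.0044 with the block.

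CXCL2 differed by 0.93 (SE 0.324, limma adjusted p = 0.142) without the block and, with SE 0.243, had a limma adjusted p of 0.035 with it. Its size rested in part on knockdown replicate 1, without which it was 0.56 (limma adjusted p = 0.0706). With every gene above 0 in the fit, the blocked limma adjusted p was 0.127, and the CXCL2 call was lost, while that of CXCL3 held (limma adjusted p = 0.0308).

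The 4 other genes tested did not pass with or without the block. Without it, 2 standard errors on either side of the log2 fold change spanned -0.73 to 0.57 for NFKBIA and -0.5 to 0.68 for TNFAIP3. With the block these spans were -0.22 to 0.06 and -0.18 to 0.37, with limma adjusted p-values of 0.398 and 0.631. With so few libraries, such spans are narrower than 95% intervals. LIF differed by 0.16 (SE 0.0807, limma adjusted p = 0.176 with the block). CXCL5 differed by -0.33 (SE 0.165, limma adjusted p = 0.172 with the block), and its sign turned with the GC trend removed, to 0.10 (limma adjusted p = 0.49 with the block). Its transcript is 37.6% G and C, against 46.0% for CXCL2 and 44.7% for CXCL3.

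**Figure D4:**
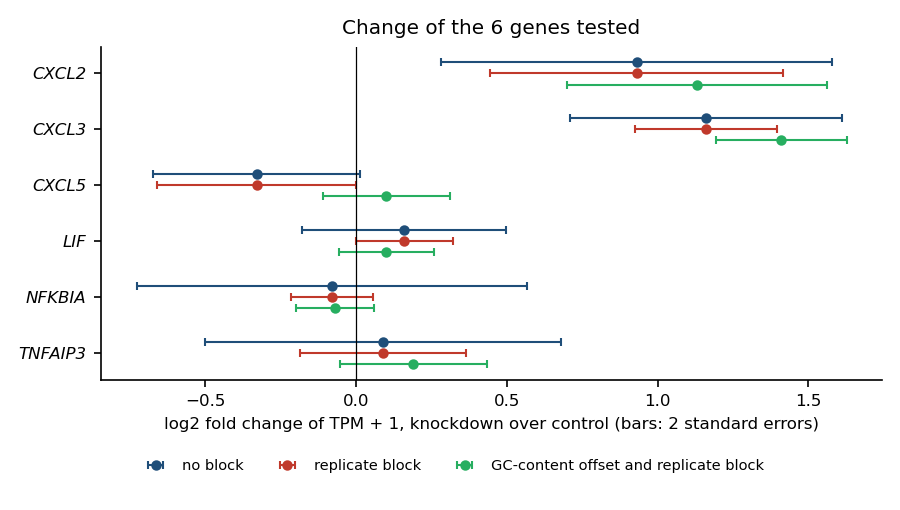
Log2 fold change of TPM + 1, knockdown over control, for the 6 genes tested, with bars of 2 standard errors from limma without a block (blue), with the replicate block (red) and with a GC-content offset and the block (green). CXCL2 and CXCL3 lie above 0 in all 3 fits, at 0.93 and 1.16 without the offset, while CXCL5 changes sign with the offset.

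The 4 genes under 1 TPM were also fitted where their reads allowed, by limma-voom on the recovered reads. CXCL8 differed by 0.95 on the log2 scale of read rates (limma-voom adjusted p = 0.117) and by 0.94 with the block (limma-voom adjusted p = 0.0776). CXCL8 did not pass the threshold in any fit it entered. IL6 differed by 0.95 (limma-voom adjusted p = 0.275). CXCL2 and CXCL3 differed by 1.44 and 1.83 with the block, with limma-voom adjusted p-values of 0.0101 and 0.00246, and so more than on the TPM + 1 scale. LIF passed in that fit as well, at 0.27 (limma-voom adjusted p = 0.0497).

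AU-rich elements in the 3′ UTR are known for marking short-lived mRNAs. Of their motifs, ATTTA and TTATTTATT were searched for in the 10 mRNAs. An ATTTA was found in the 3′ UTR of 10 of 10, against 66.2% of 11598 tested genes with a 3′ UTR in GENCODE 29. The longer TTATTTATT was found in 6 of 10, against 7.58%. The median density was 6.87 ATTTA per kilobase, against 1.46. CXCL2 held 10 ATTTA and 5 TTATTTATT, the most TTATTTATT of the 10, and CXCL1 held 3 TTATTTATT. CXCL3, CXCL8 and TNFAIP3 held 1 each, and LIF held 2. The decay of these mRNAs was not measured.

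The study's title names miR-345-5p as a microRNA that cDCBLD2 sponges. Its mature sequence, shown to make the seed search plain, lies at chr14:100307876-100307897 on the plus strand, with the seed (bases 2 to 8) in capitals.
miR-345-5p: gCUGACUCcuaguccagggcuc
The seed match, GAGTCAG, was in the 3′ UTR of 1 of the 10 genes, TNFAIP3, and in the coding sequence of 1 other, NFKBIA. Of the 11598 genes, 20.9% held one in either. CXCL2, CXCL3 and CXCL8 held none in these parts of the transcript that was read.

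The wider pathway was described by 5 lists with 98 genes, of which 79 were tested. Without the block 1 of the 79, ACKR3, passed the limma adjusted p, and 20 had an unadjusted p under 0.05. With the block, 18 of the 79 were higher and 12 lower, where of all genes 9.94% were higher and 25.0% lower. Since the lists were chosen with results known, nothing particular to them is read from these counts.

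Of the 10 subunits and IκB proteins, 2 were higher and 1 lower with the block, against 9.94% and 25.0% of all genes. The median log2 fold change was 0.01, against -0.08 over all genes tested. The lower one was REL, the subunit c-Rel, outside the rule for named genes, at 1.35 ± 0.679 and 2.23 ± 0.455 TPM, with a log2 fold change of -0.49 (limma adjusted p = 0.0458 with the block) that was -0.08 with the GC trend removed (limma adjusted p = 0.536). RELA, the activating subunit, was at 113 ± 6.41 TPM after knockdown and 94.3 ± 3.84 TPM in the controls (SD, n = 3 each). It rose by 0.26 in log2 with the block (limma adjusted p = 0.0222), but by 0.15 with the GC trend removed as well (limma adjusted p = 0.079). NFKB1, which encodes p105 and the p50 subunit, was at 39.9 ± 2.82 and 45.6 ± 0.309 TPM, with a limma adjusted p of 0.0504 with the block. BCL3, an atypical IκB protein, was at 74.8 ± 20.9 and 64.1 ± 14.3 TPM, with a log2 fold change of 0.20 (limma adjusted p = 0.0449 with the block) that was 0.03 with the GC trend removed.

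Of 27 upstream signalling genes, 5 were higher and 6 lower with the block, against 9.94% and 25.0% of all genes. Their median log2 fold change was 0.02, against -0.08 over all genes tested. MAP3K7, the kinase TAK1 that relays signals to the IκB kinases, was at 10.5 ± 3.73 TPM after knockdown and 17.4 ± 2.37 TPM in the controls. Its adaptor TAB2 was at 14.7 ± 4.07 and 23.6 ± 1.64 TPM. Both fell with the block, by 0.72 and 0.68 in log2 (limma adjusted p = 0.00935 and 0.0113), while with the GC trend removed they fell by 0.31 and 0.29 (limma adjusted p = 0.0226 and 0.034). The 3 most abundant were the kinase IRAK1 at 614 and 580 TPM, the TNF receptor TNFRSF1A at 536 and 506 TPM and RBCK1, a subunit of the linear ubiquitin ligase, at 159 and 180 TPM after knockdown and in the controls. None of these passed the limma test with or without the block alone, but with the GC trend removed and the block RBCK1 was lower, at -0.34 in log2 (limma adjusted p = 0.0105).

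Of 38 other NF-κB target genes, 22 were tested, and with the block 7 were higher and 0 lower, where of all genes 9.94% were higher and 25.0% lower. Their median log2 fold change was 0.21, against -0.08 over all genes tested. EFNA1, an ephrin ligand, was at 185 ± 76.0 and 108 ± 39.0 TPM and rose by 0.76 in log2 with the block (limma adjusted p = 0.00436), with SE 0.407 and limma adjusted p = 0.284 without it. The 3 most abundant were SQSTM1, an autophagy receptor, at 1980 and 1730 TPM, NINJ1 at 202 and 192 TPM and TNFAIP2 at 180 and 164 TPM, none of which passed with or without the block in limma. Of the targets with a mean under 1 TPM, which were not tested, 4 did not overlap between groups, 2 higher and 2 lower, and are named after their values were seen. Of the 22 tested, 4 did not overlap with the knockdown higher and 2 with it lower. Over the 17285 genes above 0 in all libraries 28.6% did not overlap in either direction. That share does not cover CCL2 and CXCL6, which were at 0 in some libraries, and no share was taken for genes under 1 TPM alone. TNF, itself an activator of the pathway, was at 0.945, 0.569 and 0.817 TPM after knockdown and at 0.0883, 0.223 and 0.446 TPM in the controls. CCL2, which attracts monocytes, was at 0.778, 0.716 and 0.617 TPM after knockdown and at 0.2, 0 and 0.168 TPM in the controls. The lower pair was CD83, a surface protein of activated immune cells, at 0.605, 0.534 and 0.575 against 0.933, 1.31 and 0.786 TPM, and CXCL6, a CXC chemokine, at 0.0938, 0 and 0 against 0.0964, 0.162 and 0.162 TPM.

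The receptors through which the chemokines act were hardly seen in these cells. CXCR2, the main receptor of CXCL1, CXCL2, CXCL3 and CXCL5, was listed at 0 in all 6 libraries. CXCR1, a receptor of CXCL8, was above 0 only in control replicate 3, at 0.0508 TPM, and CCR6, the receptor of CCL20, only in control replicate 2, at 0.0362 TPM. Of 12 receptors and transducers 9 were tested, and with the block 1 was higher and 2 lower, against 9.94% and 25.0% of all genes. The higher one was ACKR3, an atypical chemokine receptor best known for binding CXCL12, which is not among the 10 genes. ACKR3 was at 12.0, 13.7 and 13.6 TPM after knockdown and at 7.24, 7.69 and 7.36 TPM in the controls. It rose by 0.74 in log2 (SE 0.0962, limma adjusted p = 0.0444) without the block, and the groups lay far apart. With the block the limma adjusted p was 0.00484. Without the block the call was lost with upper-quartile scaling, with no filter, and when any library but knockdown replicate 1 was left out.

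Of the receptors of LIF and IL6, LIFR and the shared subunit IL6ST were lower with the block, and IL6R, at 24.7 ± 0.982 and 28.0 ± 2.01 TPM, did not pass (log2 fold change -0.17, limma adjusted p = 0.0948 with the block). LIFR was at 1.4 ± 0.693 and 2.73 ± 0.678 TPM, with a log2 fold change of -0.66 (limma adjusted p = 0.0153 with the block), and IL6ST was at 9.15 ± 6.42 and 12.9 ± 4.19 TPM, with -0.59 (limma adjusted p = 0.0476 with the block). Neither call held with the GC trend removed, at -0.19 and -0.13 (limma adjusted p = 0.117 and 0.414). The transducers JAK1 at 86.2 and 87.3 TPM, TYK2 at 46.2 and 42.6 TPM and STAT3 at 46.2 and 42.0 TPM after knockdown and in the controls did not pass the limma test with or without the block alone. With the GC trend removed and the block STAT3 was higher, at 0.21 in log2 (limma adjusted p = 0.0281).

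Of 11 regulators of mRNAs with AU-rich elements, 3 were higher and 3 lower with the block, against 9.94% and 25.0% of all genes. Their median log2 fold change was -0.17, against -0.08 over all genes tested. ZFP36, also called tristetraprolin, which binds these elements and speeds decay, was at 139, 186 and 234 TPM after knockdown and at 85.3, 124 and 140 TPM in the controls. It was higher in every replicate number, though the lowest knockdown library lay just below the highest control library. ZFP36 rose by 0.67 in log2 with the block (limma adjusted p = 0.00436), and by 0.59 with the GC trend removed (limma adjusted p = 0.00471), but did not pass without the block (limma adjusted p = 0.149). RC3H2, which encodes Roquin-2, was at 7.0 ± 2.54 and 10.7 ± 1.43 TPM, with -0.59 in log2 (limma adjusted p = 0.0184 with the block) and -0.16 with the GC trend removed. KHSRP and HNRNPD, the most abundant named, were at 179 and 172 TPM after knockdown and at 179 and 197 TPM in the controls, and neither passed the limma test with or without the block.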

How the data were processed

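The authors deposited TPM values per gene, and the submitters' processing notes name fastp 0.20.1, HISAT2 2.1.0, StringTie 2.0 and hg38, without saying how each was used. The annotation, multimapping and strand settings are not given in the sources used here. Groups and replicate numbers came from the sample titles. The genes and lists were chosen with earlier results of these data known.

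The 13980 genes averaging 1 TPM or more were fitted by limma 3.58.1 (R 4.3.3) on log2(TPM + 1), using a variance trend over mean level, and p-values were adjusted by Benjamini-Hochberg. The main fit had no block. Same-numbered libraries deviated together from their group means (correlations 0.56, 0.343 and 0.362 for replicates 1, 2 and 3 over these genes). The replicate number was therefore taken to pair the libraries, and blocked values are given beside calls they change. Libraries of unlike number were not correlated, so the pairing is an assumption on which the blocked calls rest. For single values, exact permutation tests (two-sided) were used.

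Reads were recovered with numpy 2.4.6 and numba 0.67.0 as the whole numbers whose ratios give a gene's TPM values (tolerance 0.01). Among the 17285 genes above 0 everywhere, 97.1% came out with at most 5000 reads in the lowest library, against 0.0% after random shifts of the library factors of at most 10%. The precision of every count follows from these reads. Limma-voom was run on genes with a mean of at least 5 reads. Transcripts came from GENCODE 29 (25655 of 38637 genes matched by symbol, 531 through older symbols), and GC content was known for 92.6% of genes tested. GC and length trends were removed per library by loess with a span of 0.5. Fits were tested on simulated data. Named list genes were those past the adjusted p with or without the block and changed over 1.5-fold, up to 4 in each direction, plus the 3 of highest mean TPM in each list. Other alternatives were upper-quartile scaling, filters, leaving out each library and a pseudocount of 0.1. No filter with the block was an alternative chosen after seeing the data. Python 3.11.15 was used with scipy 1.17.1, pandas 2.3.3, Biopython 1.88 and matplotlib 3.10.9.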

Additional observations from a re-analysis of the deposited data

How the results depend on the processing

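CXCL2 and CXCL3 were higher after knockdown under every alternative they entered, at 0.56 to 1.44 and 0.99 to 1.87 in log2. The limma or limma-voom adjusted p-values ran from 0.0101 to 0.321 and from 0.00246 to 0.245. These ranges mix scales, since the highest values of both genes came from limma-voom on read rates. A pseudocount of 0.1 gave 1.24 for CXCL2 and 1.73 for CXCL3. CXCL3 could not be fitted under the filter of 1 TPM in every library. Against 0 of 6 genes called higher without a block, 2 of 6 were called with the replicate block, where 1390 of all 13980 genes were. With the GC-content offset 1 of 6 was called higher (29 of all 12947 genes), and 2 of 6 with the block added (1564 of 12947). With limma-voom and the block it was 3 of 9 (2581 of all 16152 genes). With no filter and the block it was 1 of 10 (633 of all 25278 genes). When each library was left out, 0 to 1 were called higher. None was called lower under any of these. CXCL5 turned to 0.10 with the GC-content offset, with or without the block. NFKBIA, at -0.08, turned to 0.02 with upper-quartile scaling, to 0.02 and 0.01 with limma-voom without and with the block, and to between 0.08 and 0.16 without knockdown replicate 1, control replicate 2 or control replicate 3 (0.16, 0.09 and 0.08), with a range of -0.41 to 0.16 over the libraries left out in turn. TNFAIP3, at 0.09, turned to -0.24 without control replicate 1, with a range of -0.24 to 0.27. The cause was not tested. Of the pathway genes, 79 entered most fits, 86 entered limma-voom, 96 the fits with no filter and 72 the stricter filter. Those called higher were 1 without the block, 18 with the replicate block, 2 with the GC-content offset and 16 with that offset and the block. They were 3 with the length offset, 0 with upper-quartile scaling and 0 to 9 when each library was left out. Limma-voom called 4 higher, or 32 with the block. No filter gave 0, or 11 with the block, and the stricter filter gave 2. Of the pathway genes that entered each fit, 0 were called lower without the block, 12 with the replicate block and 5 with the GC-content offset and the block. Those called lower were 13 with limma-voom and the block, 2 with no filter and the block, and 0 to 14 when each library was left out. Without knockdown replicate 1, 649 of all genes tested were called higher and 2771 lower, against 35 and 88 with all libraries, and 0 when any other library was left out. Upper-quartile scaling left 1 higher and 1 lower, and 3476 genes had an unadjusted p under 0.05. With the block, 1390 were higher and 3501 lower, and with the GC-content offset added 1564 and 1719, a shift of the split between directions. The median log2 fold change of all genes was -0.08, and 0.01 with upper-quartile scaling. The 4 genes under 1 TPM are limited by depth, with at most 16 reads in any library.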
